A study of Homo sapiens with 2 samples.

Results

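The cells described here are those of MDA-MB-231 mammospheres that carried transcripts of the G2 and M phases of the cell cycle. A barcode, which stands for 1 captured cell, was placed among them when it held at least 1000 UMIs (unique molecular identifiers, 1 for each captured transcript) and at least 0.4% of these came from TOP2A, CDK1, CCNB1, CCNB2, UBE2C, CENPF, NUF2, KIF2C, CDCA3, PSRC1, BIRC5 and TPX2. This rule found 231 G2/M barcodes among 1744 of that depth, out of 2000 in the table. There were 88 among 800 in the 2 mM library and 143 among 944 in the 0 mM library. The remaining 712 and 801 are called other barcodes below.

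MDA-MB-231 is a human breast cancer line of mesenchymal character that lacks the oestrogen and progesterone receptors. Before sphere culture, its cells were kept in 2D in high-glucose DMEM for 30 days, with 2 mM metformin in the tested culture and with none in the control, which the labels call wildtype. Both cultures then formed mammospheres, which are floating spheres grown on plates that cells do not adhere to, over 10 days, and were dispersed with trypsin and EDTA before capture. The labels do not say whether metformin was present during sphere growth, and give 1 library per dose. Metformin is a biguanide drug against diabetes that inhibits complex I of the respiratory chain.

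In G2 and mitosis, cyclin B binds the kinase CDK1 and drives chromosome condensation, breakdown of the nuclear envelope and assembly of the spindle. The anaphase-promoting complex then marks cyclin B and securin for destruction, sister chromatids separate and the cell divides. Most genes of this programme are transcribed late in the cycle under the MuvB complex with B-MYB and FOXM1, which reach promoters through an element called CHR. Another element, the CCAAT box, is also common in these promoters. Transcripts of the programme mark dividing cells in tumours, where a high level of the set accompanies fast growth.

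Promoters of 4 genes at the centre of the programme are shown. Each holds CHR or CCAAT letters, as do many of the genes that follow. Each stretch is the 250 bases before the transcript start in RefSeq, build GRCh38.p14, on the plus strand, 5′ to 3′. Capitals mark the CHR letters TTTGAA and TTCGAA and the box CCAAT, each read on both strands; capitals on the opposite strand appear as TTCAAA and ATTGG. CCNB1, cyclin B1 itself, lies at chr5:69166900-69167149. CDK1, its kinase, has 2 start windows, of which the downstream one is shown, at chr10:60778228-60778477. PLK1, a kinase of spindle assembly, lies at chr16:23678639-23678888, and CDC20, an activator of the anaphase-promoting complex, at chr1:43358731-43358980.
CCNB1: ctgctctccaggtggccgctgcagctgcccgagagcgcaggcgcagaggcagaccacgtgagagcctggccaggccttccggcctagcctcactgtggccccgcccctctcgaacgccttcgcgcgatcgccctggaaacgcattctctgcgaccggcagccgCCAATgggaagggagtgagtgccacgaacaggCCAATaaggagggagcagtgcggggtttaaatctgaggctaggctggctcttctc
CDK1: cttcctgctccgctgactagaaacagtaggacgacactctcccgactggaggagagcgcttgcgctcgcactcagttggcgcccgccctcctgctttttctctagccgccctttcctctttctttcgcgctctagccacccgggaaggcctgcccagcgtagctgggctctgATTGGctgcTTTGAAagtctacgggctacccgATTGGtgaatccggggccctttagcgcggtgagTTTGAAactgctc
PLK1: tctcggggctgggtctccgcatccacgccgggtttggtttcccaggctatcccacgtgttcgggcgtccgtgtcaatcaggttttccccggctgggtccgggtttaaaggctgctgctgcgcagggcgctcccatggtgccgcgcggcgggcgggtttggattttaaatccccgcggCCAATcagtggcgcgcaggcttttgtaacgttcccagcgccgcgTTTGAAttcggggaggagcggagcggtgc
CDC20: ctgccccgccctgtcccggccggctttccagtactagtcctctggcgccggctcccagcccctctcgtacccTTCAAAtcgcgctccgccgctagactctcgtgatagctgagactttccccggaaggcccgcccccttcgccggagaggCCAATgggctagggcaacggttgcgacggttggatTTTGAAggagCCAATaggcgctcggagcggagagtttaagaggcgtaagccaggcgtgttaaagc
CHR letters lay 69 and 13 bases before the CDK1 start, 29 before the PLK1 start, and 178 and 65 before the CDC20 start. CCAAT letters lay 87 and 55 bases before the CCNB1 start, where CHR letters were not in this window. UBE2C and AURKA were also chosen to be shown but had no window among the promoters used. Over the 103 G2/M genes of the lists used below that are not part of the rule, 88 had a window, and 42 of these (47.7%) held CHR letters, 64 (72.7%) CCAAT letters and 33 (37.5%) both. Among 43 S-phase genes with a window the shares were 14.0%, 65.1% and 9.3%. Among all 27305 genes with a window they were 17.2%, 37.0% and 6.24%. CHR letters were thus found more often in the G2/M windows than in either set, while CCAAT letters were about as frequent in the S-phase windows. These are matches of letters, and no binding was measured.

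The table held 3268524 UMIs over 1000 barcodes of the 2 mM library and 4403045 UMIs over 1000 barcodes of the 0 mM library. No barcode was found in both libraries. Some barcodes lay 1 base apart from another of the same library, 48 at 2 mM and 98 at 0 mM, and 10 and 9 of these were G2/M barcodes. Mitochondrially encoded transcripts had a median share of 4.79% in G2/M and 5.24% in other barcodes at 2 mM, and 4.74% and 5.24% at 0 mM. Defining markers of other tissues were at or near 0 in G2/M barcodes. The summed level of 4 leukocyte genes was 9.07 CPM (UMI counts scaled to a common total for each class) at 2 mM and 12.2 CPM at 0 mM. That of 5 fibroblast genes was 0 and 3.05 CPM. Only 1 endothelial and 1 erythroid marker could be looked up, and neither had a UMI in G2/M barcodes. VIM, CD44 and AXL, which mark the mesenchymal state of the line, stood at 1850, 197 and 111 CPM at 2 mM and 4084, 332 and 246 CPM at 0 mM. Epithelial transcripts were also present. The summed level of 7 epithelial genes was 1374 CPM in G2/M against 1367 CPM in other barcodes at 2 mM, and 879 against 1311 CPM at 0 mM.

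G2/M barcodes made up 11% of the 2 mM library (95% exact binomial interval 8.92 to 13.4%) and 15.1% of the 0 mM library (12.9 to 17.6%). The difference was -4.15 percentage points, with an interval from -8.68 to 0.456 built from the outer bounds of both shares. The share at 2 mM was lower. The interval of the difference held 0, and an interval built this way is wider than a 95% interval. With barcodes 1 base apart merged, the difference was -4.82 points and its interval, built in the same way, was -9.44 to -0.13 and left out 0. Both intervals cover only the counting of barcodes. With 1 library per dose, neither can decide whether the cultures differed. The libraries differed in depth, so each barcode was also thinned at random to a fixed number of UMIs. At 1000 UMIs the share was 12.9% at 2 mM and 15.8% at 0 mM, a difference of -2.91 points. Among barcodes deep enough for 2000 UMIs it was 14.6% and 15.4% after thinning, and 11.9% and 16.5% at their own depth. At equal depth the shares therefore lay closer together than at their own depth. At 3000 UMIs the difference was -0.33 points thinned and -4.26 points unthinned. Barcodes under the chosen depth were left out, 200 and 56 at 1000 UMIs, 412 and 299 at 2000 UMIs, and 588 and 444 at 3000 UMIs.

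The rule cuts a continuous score, so these barcodes are a range and not a separate type. Just inside the limit, the shares of UMIs in the 12 genes were 0.408, 0.415 and 0.441% at 2 mM and 0.404, 0.412 and 0.413% at 0 mM. Just outside, they were 0.391, 0.396 and 0.399% at 2 mM and 0.389, 0.392 and 0.399% at 0 mM. Within 0.1 points of the limit lay 18 G2/M and 28 other barcodes at 2 mM, and 33 and 21 at 0 mM. At the other end, 28 G2/M barcodes at 2 mM and 48 at 0 mM reached 1.0%. The highest shares were 2.25% and 2.11%.

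G2/M barcodes held more transcripts. The median was 4352.5 UMIs in G2/M against 2971 in other barcodes at 2 mM, and 5570 against 3371 at 0 mM, which is 1.46 and 1.65 times as many. They also held more genes, with medians of 2168 against 1628 and 2564 against 1736. Of the 5% deepest barcodes, 7 at 2 mM and 26 at 0 mM were G2/M barcodes. Without the 5% deepest barcodes, both ratios were 1.35. With the limit at 0.6%, at 0.8%, or a minimum of 500 UMIs, the ratio at 2 mM was 1.13 (0.93 to 1.66), 1.15 (0.89 to 1.73) and 1.24 (0.72 to 1.49). These intervals, built from the outer bounds of both medians, held 1. At 0 mM the same settings gave 1.82 (1.32 to 2.38), 1.85 (1.33 to 2.55) and 1.51 (1.11 to 1.97). No doublet caller was run, and the part of doublets in the depth of this class was not tested.

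The genes of the rule were, by construction, higher in G2/M barcodes, and their values are given as a description. CENPF, a kinetochore protein, had the highest level, with 2045 CPM in G2/M against 171 CPM in other barcodes at 2 mM, and 1831 against 143 CPM at 0 mM. TOP2A, the topoisomerase that untangles sister chromatids, followed with 1664 against 99.7 CPM and 1704 against 93.8 CPM. CCNB1 had 646 against 36.6 CPM and 1012 against 49.0 CPM. PSRC1, a microtubule plus-end protein of the spindle, had the lowest level, with 129 against 16.1 CPM and 181 against 24.6 CPM. These levels are not scaled by transcript length, so they do not rank the genes by number of molecules.

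The label was checked with the 103 G2/M genes outside the rule. Per barcode, they held 0.738% of UMIs at the lowest, 2.48% at the median and 5.73% at the highest in G2/M barcodes at 2 mM, against 0.0577, 0.389 and 2.30% in other barcodes. At 0 mM they held 0.517, 2.504 and 5.49% in G2/M barcodes, against 0, 0.429 and 2.88% in other barcodes. The ranges overlapped, but 85 of 88 and 136 of 143 G2/M barcodes lay above the 90th percentile of the other barcodes. None of 712 and 2 of 801 other barcodes reached the median of the G2/M barcodes. After thinning to 1000 UMIs the mean was 26.2 against 5.22 UMIs at 2 mM and 26.7 against 5.53 UMIs at 0 mM. The genes of the same programme thus stood higher in the same barcodes.

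**Figure D1:**
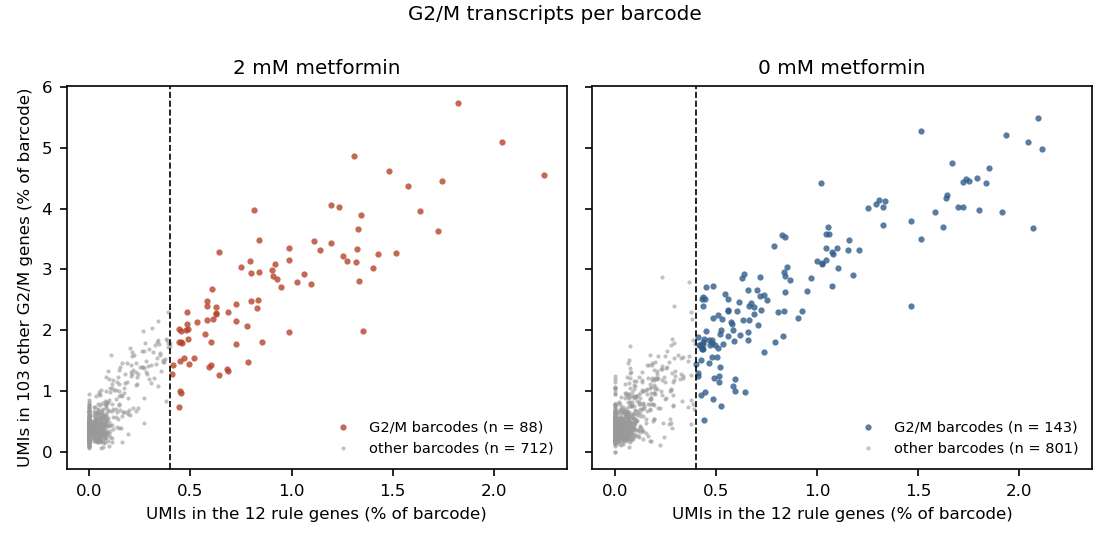
Share of each barcode's UMIs in the 12 rule genes (x axis, percent) and in 103 other G2/M genes (y axis, percent), in the 2 mM library on the left and the 0 mM library on the right; coloured points are the 88 and 143 G2/M barcodes, grey points the 712 and 801 other barcodes, and the dashed line is the limit of 0.4%. Both shares climb together through the limit without a gap, and the G2/M barcodes reach 5.73% and 5.49% on the y axis.

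Outside the rule, the 12 genes highest in G2/M barcodes of both libraries included the kinases NEK2, PLK1 and AURKA, the kinesins KIF14 and KIF20A and the centromere histone CENPA. Of 3882 genes compared in both libraries (at least 50 CPM in either class and 50 UMIs over both), 339 (8.73%) were at least 1.5-fold higher in G2/M barcodes and 182 (4.69%) at least 1.5-fold lower. Of these, 333 (8.58%) and 173 (4.46%) also had counting intervals that left out 1 in both libraries. Within single libraries, the higher genes were 543 of 4299 (12.6%) at 2 mM and 626 of 4214 (14.9%) at 0 mM. Lower genes were 415 (9.65%) and 396 (9.4%). With intervals that also left out 1, there were 514 (12%) higher and 356 (8.28%) lower at 2 mM, and no fewer than before at 0 mM. The rule selected barcodes from these same counts, so the figures describe the class and nothing is read from how many genes passed.

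CENPA, the histone H3 variant that marks centromeres, had 109 CPM in G2/M against 4.11 CPM in other barcodes at 2 mM (ratio 26.5, 13.6 to 56.6), and 132 against 4.45 CPM at 0 mM (29.6, 17.3 to 54.5). KIF14, a kinesin of the midbody, had 249 against 9.71 CPM and 238 against 11 CPM. NEK2, a kinase that separates centrosomes, had 113 against 4.11 CPM and 175 against 8.31 CPM. All of these were over 20-fold apart in both libraries. PLK1 had 163 against 7.09 CPM and 185 against 9.80 CPM, and AURKA, the kinase of spindle poles, 710 against 39.6 CPM and 722 against 49.9 CPM. ASPM, a spindle pole protein, had 900 against 44.1 CPM and 746 against 47.8 CPM. FAM64A, KIF20A, DLGAP5, FAM83D, MKI67 and DEPDC1 completed the 12 highest. Their ratios ranged from 11.5 for MKI67 to 26.1 for FAM64A at 2 mM, and from 12.5 for MKI67 to 27.9 for KIF20A at 0 mM.

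By role, the lists of the spindle, of cytokinesis and of the mitotic kinases stood furthest above the other barcodes, and those of cohesin and chromatin less far. Over the 103 genes the summed level was 25978 CPM in G2/M against 5586 CPM in other barcodes at 2 mM, and 28426 against 5447 CPM at 0 mM. Of those that passed the minimum, 82 of 88 at 2 mM and 85 of 91 at 0 mM were at least 1.5-fold higher. Over all genes compared these shares were 12.6% and 14.9%. Their median log2 ratio was 2.71 and 3.07, beside 0.04 and 0.09 over all genes compared. Many passed the minimum only through the G2/M barcodes, where the rule made them high. These counts, and those of the single G2/M lists below, are therefore a description.

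All 15 compared kinases and regulators of mitosis were at least 1.5-fold higher in each library. The share over all genes compared was 12.6% at 2 mM and 14.9% at 0 mM. Median log2 ratios of the list were 2.84 and 3.22. AURKB, the kinase of the chromosomal passenger complex, had 200 against 28.8 CPM and 287 against 25.2 CPM. Its partner CDCA8 had 268 against 12.3 CPM and 257 against 26.4 CPM. FOXM1, the transcription factor of the programme, had 86.2 against 11.6 CPM and 68.1 against 9.50 CPM. CDC25B, a phosphatase that activates CDK1 early in G2, differed least, with 152 against 71.7 CPM and 124 against 63.8 CPM. The inhibitory kinase WEE1 was also close, with ratios of 2.40 and 2.2.

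Of all genes compared, 12.6% at 2 mM and 14.9% at 0 mM were at least 1.5-fold higher. Of the spindle list, 24 of 25 genes at 2 mM and 25 of 26 at 0 mM were. CKAP4 was the exception, at 224 against 219 CPM and 165 against 164 CPM; despite its name it is mainly a protein of the endoplasmic reticulum. STMN1, which destabilises microtubules and is also made outside mitosis, was abundant, at 1869 against 557 CPM and 2381 against 644 CPM. HMMR, a spindle protein, had 90.7 against 3.73 CPM and 68.1 against 5.35 CPM. In cytokinesis, all 7 and 9 compared genes were higher. PRC1, which bundles the central spindle, had 1059 against 133 CPM and 1151 against 126 CPM. ANLN, the contractile ring protein anillin, had ratios of 7.09 and 10.2.

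Anaphase genes split in both libraries into targets and activators of the anaphase-promoting complex, which were high in G2/M barcodes, and its subunits, which mostly were not. PTTG1, which encodes securin, had 1048 against 139 CPM at 2 mM and 1195 against 170 CPM at 0 mM. CDC20 had 465 against 44.8 CPM and 583 against 37.7 CPM, and cyclin A2 (CCNA2) 184 against 14.6 CPM and 259 against 19.3 CPM. The subunits CDC16 and ANAPC11 had ratios of 0.64 and 1.42 at 2 mM and of 0.79 and 1.23 at 0 mM. CDC27, another subunit, had ratios of 1.36 at 2 mM and 1.95 at 0 mM. Past 1.5-fold lay CDC27 at 0 mM, which was higher, and CDC16 at 2 mM, which was lower with an interval that held 1 (0.38 to 1.04).

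At the kinetochore, 16 of 17 compared genes were at least 1.5-fold higher in each library, with DSN1 below this at ratios of 1.42 and 1.44. Over all genes compared the share was 12.6% at 2 mM and 14.9% at 0 mM. NDC80, which binds microtubules and is the partner of NUF2, had 293 against 27.3 CPM and 392 against 30.9 CPM. In the condensin and cohesin list, the condensin subunit NCAPG had ratios of 6.72 and 8.46, and SMC4 of 4.52 and 5.10. Cohesin subunits lay lower, with SMC3 at 1.63 and 1.41 and STAG2 at 1.13 and 0.97. Among chromatin genes, HMGB2 had ratios of 5.79 and 7.58 and HMGB3 of 7.10 and 7.72, while HMGA1 was at 0.72 and 0.87. Tubulins had median log2 ratios of 0.96 and 1.12; TUBB4B was at 1057 against 331 CPM and 1223 against 398 CPM. Tubulin genes are close copies of one another, so reads may be split between them.

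**Figure D2:**
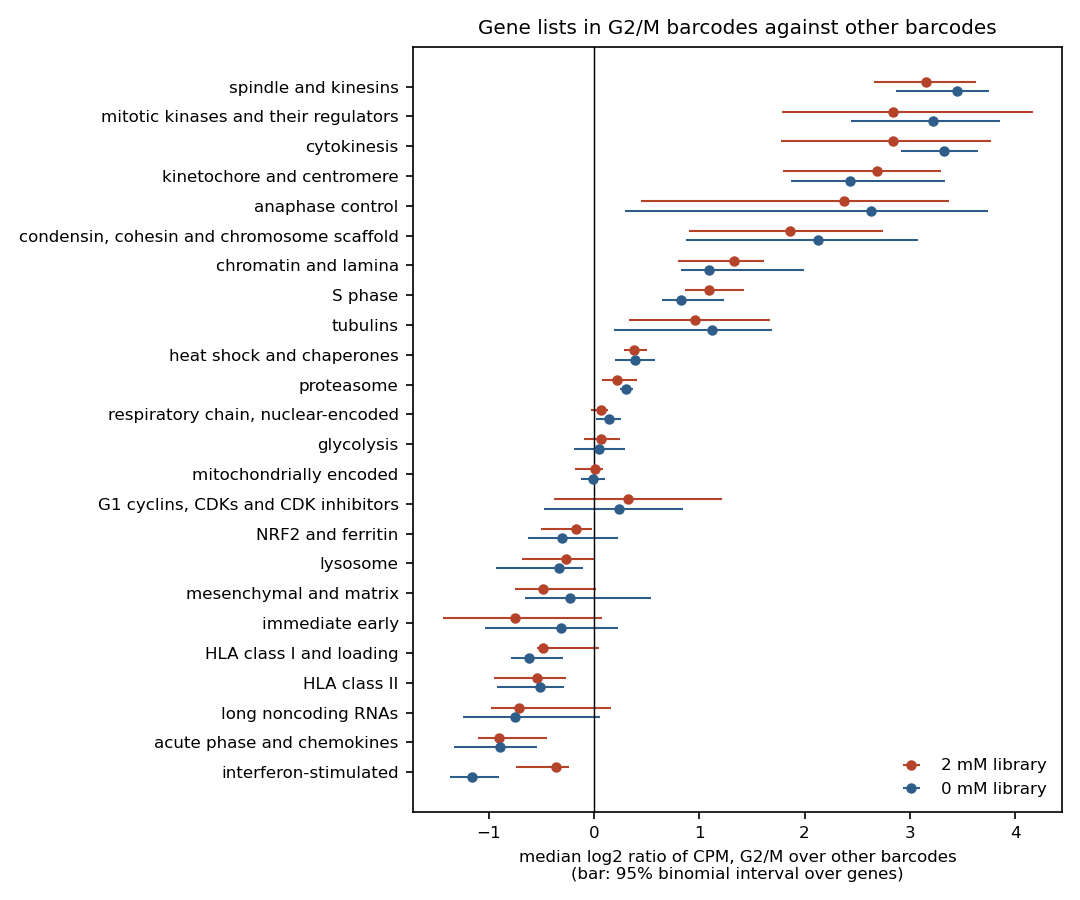
Median log2 ratio of CPM in G2/M over other barcodes (x axis) for the compared genes of 24 lists, red for the 2 mM and blue for the 0 mM library; bars are 95% binomial intervals over genes. Spindle genes had the highest medians, 3.15 and 3.45, and the interferon-stimulated list had the lowest median at 0 mM, -1.15.

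Along the score, S-phase transcripts and those of the histone gene HIST1H4C were highest near the limit and mitotic ones at the top. Barcodes were divided by their share of UMIs in the 12 rule genes: none, above 0 to 0.2%, 0.2 to 0.4%, and for G2/M barcodes 0.4 to 0.6%, 0.6 to 1.0% and 1.0% or more. The summed level of 50 S-phase genes in these 6 steps was 1169, 2444, 8996, 6710, 6501 and 3626 CPM at 2 mM. At 0 mM it was 1496, 2564, 6953, 7653, 6489 and 3272 CPM. HIST1H4C, a histone H4 gene transcribed with DNA replication, had 97.0, 118, 890, 1855, 1521 and 373 CPM at 2 mM, and 133, 184, 1091, 1801, 1410 and 389 CPM at 0 mM. Other histone genes differed. Of the replication-dependent histones compared over the whole class, 2 of 4 at 2 mM and 2 of 6 at 0 mM were at least 1.5-fold higher than in other barcodes. At least 1.5-fold lower were 2 and 3. Among all genes compared, 12.6% and 14.9% were higher and 9.65% and 9.4% lower. G2/M barcodes under 0.6% thus held S-phase and HIST1H4C transcripts at several times the level of barcodes without rule transcripts. The class is therefore not limited to cells past S phase in their transcripts.

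The mitotic kinase genes AURKA and PLK1 had another course. AURKA stood at 348, 751 and 1111 CPM in the 3 steps of G2/M barcodes at 2 mM, and at 258, 517 and 1221 CPM at 0 mM. PLK1 had 12.9, 154 and 365 CPM, and 47.2, 114 and 339 CPM. MCM3, a subunit of the replicative helicase, had 296, 203 and 122 CPM at 2 mM and 280, 152 and 74.3 CPM at 0 mM. PLK1 and AURKA were therefore highest, and MCM3 lowest, in the top step of both libraries. RRM2, a subunit of ribonucleotide reductase, had 219, 185 and 89.2 CPM at 2 mM but 274, 392 and 84.2 CPM at 0 mM. CDKN1A, which encodes the inhibitor p21, was highest in the lowest step, with 270.5, 179 and 97.3 CPM and 176, 163 and 84.2 CPM. The steps hold 26, 34 and 28 barcodes at 2 mM and 56, 39 and 48 at 0 mM.

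**Figure D3:**
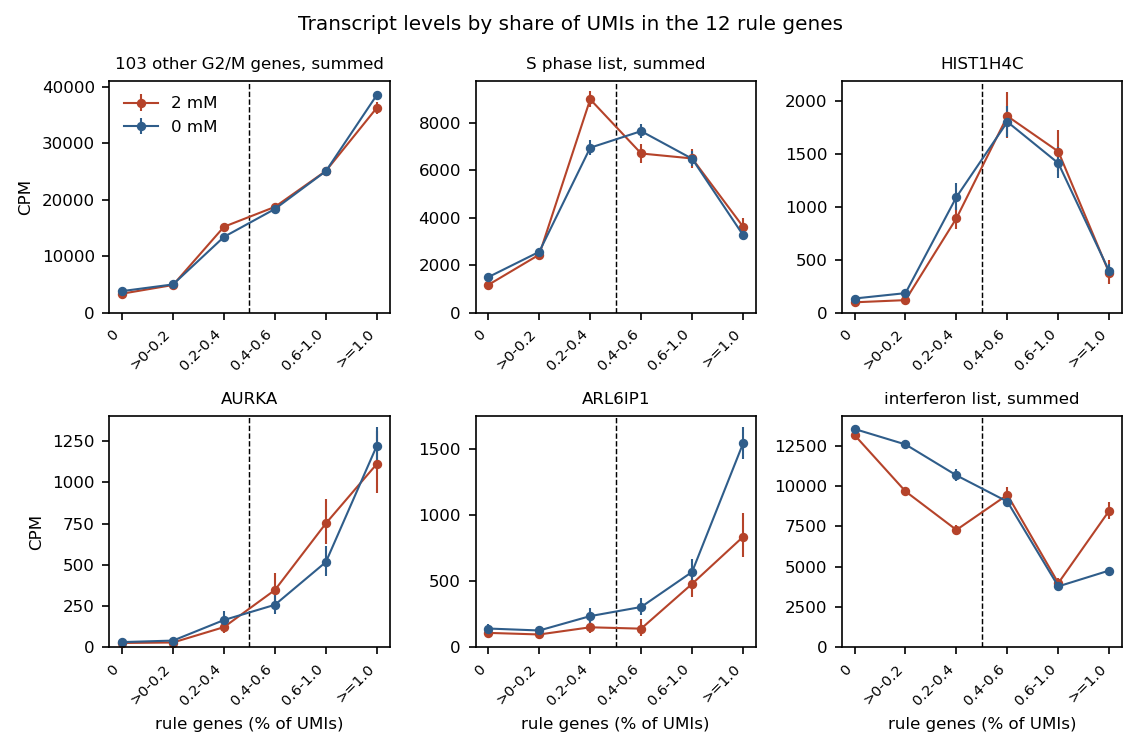
Level in CPM (y axes, with exact Poisson intervals of counting error) of 103 other G2/M genes, 50 S-phase genes, HIST1H4C, AURKA, ARL6IP1 and 43 interferon-stimulated genes in 6 steps of the share of UMIs in the rule genes (x axes, percent), red for 2 mM and blue for 0 mM; the dashed line is the limit of 0.4%. HIST1H4C was highest in the step from 0.4 to 0.6% (1855 and 1801 CPM), AURKA in the step of 1.0% or more (1111 and 1221 CPM).

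Over the whole class, 25 of 30 compared S-phase genes at 2 mM and 24 of 30 at 0 mM were at least 1.5-fold higher in G2/M than in other barcodes, beside 12.6% and 14.9% of all genes compared. A gene could pass the minimum through the G2/M barcodes alone, so these counts are a description. The median log2 ratios of the list were 1.10 and 0.82, and with no CPM minimum they were 0.92 and 0.81. RRM2 had 170 against 42.6 CPM and 228 against 27.6 CPM. UNG, a uracil glycosylase of early S phase, was lower at 0 mM, with 31.5 against 54.3 CPM. Thinned to 1000 UMIs, the list held a mean of 5.15 against 2.42 UMIs at 2 mM and 5.51 against 2.64 at 0 mM. The difference depended on the limit in both libraries: with the rule at 0.8% the median log2 ratio of the list was 0.32 (-0.13 to 0.84) at 2 mM and -0.27 (-0.78 to 0.48) at 0 mM, and both intervals held 0.

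Most chaperone and proteasome genes were above a ratio of 1 but few passed 1.5-fold, and energy genes were near the median of all genes. Above 1 were 15 of 15 chaperone and 22 of 25 proteasome genes at 2 mM, and 14 of 15 and 23 of 25 at 0 mM. The median log2 ratio over all genes was 0.04 at 2 mM and 0.09 at 0 mM. Of heat shock and chaperone genes, 3 of 15 were at least 1.5-fold higher in each library, with median log2 ratios of 0.38 and 0.39. Of proteasome genes, 3 of 25 at 2 mM and 5 of 25 at 0 mM were, with medians of 0.22 and 0.31. Of all genes compared, 12.6% and 14.9% were. HSP90AA1, a cytosolic chaperone, had 2175 against 1180 CPM and 1931 against 1161 CPM. Glycolysis had medians of 0.07 and 0.05, nuclear-encoded respiratory chain genes of 0.07 and 0.14, and mitochondrially encoded genes of 0.01 and -0.01.

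Genes lower in G2/M barcodes of both libraries included IGFBP6, SOD2 and CD55. IGFBP6, which binds insulin-like growth factor II, had 220 CPM in G2/M against 910 CPM in other barcodes at 2 mM, and 260 against 989 CPM at 0 mM. SOD2, the mitochondrial superoxide dismutase, had 127 against 514 CPM and 140 against 685 CPM. CD55, which shields cells from complement, had 72.6 against 267 CPM and 147 against 519 CPM. Each was over 3-fold lower in both libraries. ITGA10, TNFRSF11B, SLFN5, HIST1H2AC, OASL, GBP2, NOV, NNMT and WARS completed the 12 lowest, with ratios from 0.06 for ITGA10 to 0.31 for OASL at 2 mM and from 0.13 for ITGA10 to 0.38 for NNMT at 0 mM. ITGA10, an integrin chain, rested on few UMIs in G2/M barcodes, 2 at 2 mM (ratio 0.06, 0.00716 to 0.22) and 7 at 0 mM (0.13, 0.05 to 0.26).

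Interferon-stimulated genes were the list with the most lower members at 0 mM, 26 of 31, beside 9.4% of all genes compared. At 2 mM 12 of 34 were lower, beside 9.65%. The median log2 ratio was -0.36 at 2 mM and -1.15 at 0 mM. Without the 5% deepest barcodes it was -0.73 at 2 mM and -1.03 at 0 mM. With the limit of the rule at 0.6% it was -0.86 and -1.39. ISG15, an antiviral ubiquitin-like protein, had 914 against 1706 CPM and 939.6 against 2588 CPM. Within the G2/M class, the 5 barcodes richest in these transcripts held 47.0% of the list's UMIs at 2 mM, where the class has 88 barcodes, and 41.6% at 0 mM, where it has 143. Barcodes with at least 2% of their UMIs in the list were 11 of 88 (12.5%, exact binomial interval 6.41 to 21.3%) in G2/M against 100 of 712 (14.0%, 11.6 to 16.8%) in others at 2 mM. They were 9 of 143 (6.29%, 2.92 to 11.6%) against 150 of 801 (18.7%, 16.1 to 21.6%) at 0 mM. The median barcode held 0.312% against 0.468% at 2 mM, and 0.303% against 0.639% at 0 mM. Depth moved with the class as given above, and its part in these shares was not tested.

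Acute-phase and chemokine genes, HLA class II genes, immediate early genes and long noncoding RNAs also had members that were lower in G2/M barcodes of each library. Among all genes compared, 9.65% at 2 mM and 9.4% at 0 mM were at least 1.5-fold lower. Of acute-phase and chemokine genes, 10 of 13 at 2 mM and 8 of 10 at 0 mM were at least 1.5-fold lower. CXCL1, a chemokine for neutrophils, had 320 against 625 CPM and 119 against 220 CPM. Its G2/M UMIs came from few barcodes, with 17.7% of 141 from 1 barcode at 2 mM and 45.3% of 117 from 1 barcode at 0 mM. NFKBIA, the inhibitor of NF-kB, had 376 against 684 CPM and 388 against 721 CPM. Of 10 HLA class I genes 0 at 2 mM and 6 at 0 mM passed 1.5-fold lower, with B2M at 0.77 and 0.66. Of HLA class II genes, 3 of 8 at 2 mM and 3 of 7 at 0 mM passed, with median log2 ratios of -0.54 and -0.51. Among 6 long noncoding RNAs, 4 were lower in each library, including MALAT1, a nuclear RNA, at 11542 against 17601 CPM and 16103 against 26412 CPM. Of immediate early genes, 5 of 9 and 3 of 10 were lower, and 1 was higher at 0 mM. JUNB, a transcription factor of that list, had 24.9 against 90.4 CPM and 45.7 against 141 CPM. Among G1 regulators, the cyclin CCND3 had ratios of 0.63 and 0.57, and the CDK inhibitor CDKN2D of 3.68 and 3.82.

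Between the libraries, the mitotic programme of G2/M barcodes was close in level, with some genes, such as CCNB1 and ARL6IP1, lower at 2 mM. Of 4258 genes compared within G2/M barcodes, 428 (10.1%) were at least 1.5-fold higher at 2 mM than at 0 mM and 396 (9.3%) at least 1.5-fold lower. With intervals that left out 1, there were 342 (8.03%) and 303 (7.12%). Higher genes made up 51.9% of those past 1.5-fold by total scaling and 41.9% with TMM factors, where 356 were higher and 493 lower. In the other barcodes 220 of 4063 (5.41%) were higher and 118 (2.9%) lower, with more UMIs behind each gene. With 1 library per dose, drug, culture and library preparation cannot be told apart, and no test was possible; intervals cover counting error only and leave out the spread between cells.

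Of the rule genes, CCNB1 and CDCA3 were at least 1.5-fold lower at 2 mM and none was 1.5-fold higher. CCNB1 had 646 CPM at 2 mM, against 1012 CPM at 0 mM (ratio 0.64, 0.56 to 0.73). CDCA3, which promotes entry into mitosis, had 202 and 307 CPM (0.66, 0.51 to 0.84). UBE2C, the ubiquitin carrier of the anaphase-promoting complex, had 993 and 1400 CPM (0.71, 0.64 to 0.79). KIF2C, a depolymerase of microtubules, was at 0.73, PSRC1 at 0.71, NUF2 at 0.79 and CDK1 at 0.80. These 7 had intervals below 1. CENPF, with 2045 and 1831 CPM, had an interval above 1 (1.12, 1.03 to 1.21). TOP2A (0.98), TPX2 (1.02), CCNB2 (1.05) and BIRC5 (1.12), the last an inhibitor of apoptosis in the passenger complex, had intervals that held 1. The rule sums these genes, so their levels within the class are tied to one another and to the limit.

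**Figure D4:**
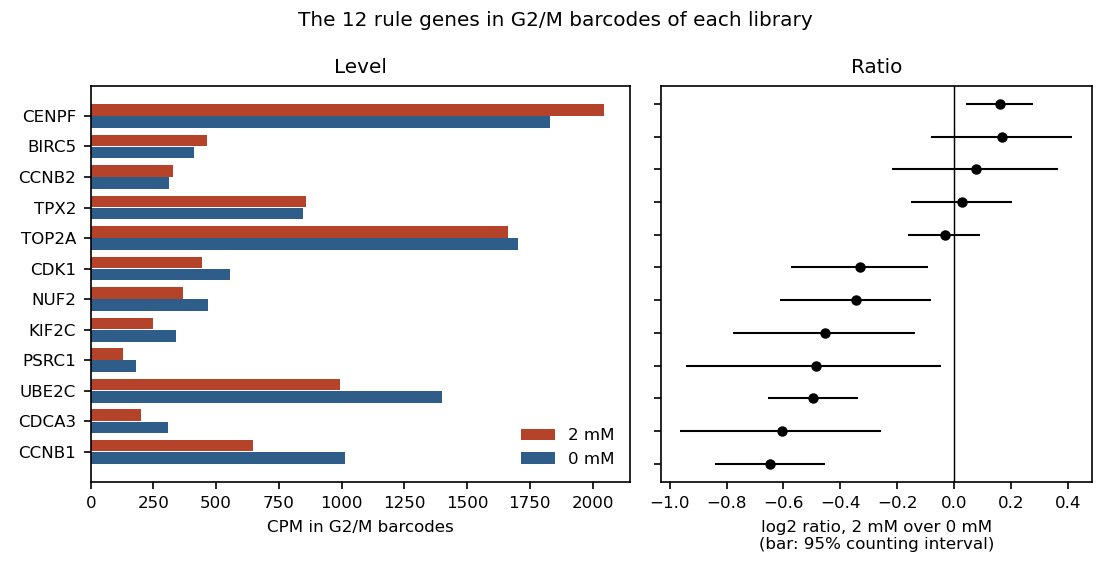
Level of the 12 rule genes in G2/M barcodes (left, CPM, bars from 0; red for 2 mM above blue for 0 mM) and log2 ratio of 2 mM over 0 mM (right, points with 95% counting intervals). CCNB1 lies lowest with a ratio of 0.64 and CENPF has 2045 CPM at 2 mM, against 1831 CPM at 0 mM.

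CCNB1 and UBE2C are part of the score, so their levels by step are given as a description. In the steps 0.4 to 0.6%, 0.6 to 1.0% and 1.0% or more, CCNB1 had 289.8, 628 and 1119 CPM at 2 mM and 308, 623 and 1818 CPM at 0 mM. UBE2C had 541, 985 and 1574 CPM at 2 mM and 689, 1026 and 2202 CPM at 0 mM. Outside the rule, ARL6IP1, a shaper of the endoplasmic reticulum listed with spindle genes, had 142, 480 and 835 CPM, and 305, 570 and 1541 CPM, and its counting intervals did not overlap in the lowest and the top step. G2/M barcodes in the top step had a median of 3410 UMIs at 2 mM and 7022 UMIs at 0 mM, and the part of depth in this was not tested.

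Outside the rule, 36 of 93 compared G2/M genes were above a ratio of 1, with a median log2 ratio of -0.14 (-0.23 to -0.01) beside -0.01 over all genes. Of these 93, 1 was at least 1.5-fold higher (1.08%, beside 10.1% of all genes) and 5 were lower (5.38%, beside 9.3%). The higher one was ANAPC11, with 664 CPM at 2 mM, against 439 CPM at 0 mM. The lower ones were NEK2 (0.65, 0.46 to 0.89), SKA2, a kinetochore protein (0.56, 0.42 to 0.74), TROAP, a spindle protein (0.63, 0.45 to 0.88), ARL6IP1 (0.52, 0.45 to 0.61) and DEPDC1B, whose interval held 1 (0.59, 0.31 to 1.05). ASPM was slightly higher, with 900 and 746 CPM (1.21, 1.07 to 1.37), as was SPAG5, a spindle protein, with 224 and 164 CPM (1.37, 1.06 to 1.77). Without the 5% deepest barcodes the median of the 93 genes was -0.02 (-0.14 to 0.08). With barcodes weighted equally it was -0.055 (-0.17 to 0.03).

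Tubulins were below 1 in all 9 compared genes in G2/M barcodes and in all 9 in other barcodes, also with TMM factors. In G2/M barcodes the ratios ran from 0.435 for TUBB2A to 0.938 for TUBA1A, with a median log2 of -0.40, and in other barcodes the median was -0.25. TUBA1B had 2098 CPM at 2 mM, against 2604 CPM at 0 mM in G2/M barcodes, and 687 and 785 CPM in other barcodes. All 9 cytokinesis genes were below 1 in G2/M barcodes, with a median log2 of -0.23; RACGAP1, which organises the central spindle, had 97.5 and 145 CPM (0.67, 0.47 to 0.95). S-phase genes had a median of 0.07. HMGB3, a chromatin protein, was 2.55-fold higher at 2 mM in G2/M barcodes (456 and 179 CPM) and 2.77-fold higher in other barcodes (64.2 and 23.2 CPM).

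The 12 genes ranked highest and the 12 ranked lowest between the libraries within G2/M barcodes were not among the 103 G2/M genes or those of the rule. CPVL, a carboxypeptidase, had 161 CPM at 2 mM, against 23.4 CPM at 0 mM (ratio 6.89, 4.25 to 11.6), and GCHFR, which regulates tetrahydrobiopterin synthesis, 125 and 19.3 CPM (6.46, 3.78 to 11.5). SAA2, an acute-phase protein, had 667 and 206 CPM (3.23, 2.69 to 3.89), and HLA-DRB1, an HLA class II chain, 567 and 196 CPM (2.89, 2.39 to 3.51). In other barcodes these 4 had ratios of 4.55, 3.32, 3.13 and 2.35, in the same direction. IFI27, GPR116, CPD, ST3GAL5, KRT19 and PODXL were 2.71- to 4.22-fold higher. For IFI27, 31.4% of the 118 UMIs in G2/M barcodes at 2 mM came from 1 barcode. LCN2 had 37 UMIs in 18 G2/M barcodes at 2 mM, against 15 UMIs in 4 barcodes at 0 mM, where 80.0% came from 1 barcode. IFIT5 had 42 UMIs in 19 barcodes at 2 mM, of which 40.5% came from 1 barcode, against 25 UMIs in 21 barcodes at 0 mM. SAA2 and HLA-DRB1 have close relatives, SAA1 and the other DRB genes, with which reads may be shared.

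Among the 12 genes ranked lowest at 2 mM were ID3 and its relative ID1, which hold back basic helix-loop-helix factors. ID3 had 20.4 CPM at 2 mM, against 228 CPM at 0 mM (0.09, 0.04 to 0.17) and ID1 had 92.97 and 307 CPM (0.30, 0.21 to 0.42). In other barcodes their ratios were 0.14 and 0.26. The cytoskeletal genes ACTB, with 481 and 1180 CPM, and VIM, with 1850 and 4084 CPM, had ratios of 0.41 and 0.45 in G2/M and of 0.44 and 0.51 in other barcodes. PTX3, CTGF, EMP1, FOS, IGFBP7, ARHGDIB and HMGA1 ranged from 0.16 to 0.44. G0S2, an inhibitor of lipolysis, was at 0.24, but 51.0% of its 206 UMIs at 0 mM came from 1 barcode. Of 3706 genes compared in both classes, 109 (2.94%) were higher at 2 mM in both and 55 (1.48%) lower in both, of which 96 (2.59%) and 51 (1.38%) had intervals that left out 1 in both classes. None of the 3706 genes was 1.5-fold apart in opposite directions.

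For some genes the ratio between the libraries was not the same in G2/M as in other barcodes. The ratio of the ratios had a counting interval above 1 for 239 of 3706 genes and below 1 for 252. These intervals leave out the spread between cells. The ratio of the ratios also does not say in which class the libraries lay further apart. The keratins KRT7 and KRT19, of simple epithelia, were among the highest. KRT7 had 259 CPM at 2 mM, against 109 CPM at 0 mM in G2/M barcodes, and 240 and 270 CPM in other barcodes (ratio of ratios 2.68, 2.02 to 3.55). KRT19 had 361 and 133 CPM in G2/M barcodes, and 283 and 245 CPM in other barcodes (2.34, 1.82 to 3.01). The antiviral genes HERC5 (2.35), ZC3HAV1 (2.18) and DDX58 (2.07) and the interferon-induced NMI (2.40) followed. In G2/M barcodes at 2 mM, the richest barcode for each held 28.8% of HERC5, 18.2% of ZC3HAV1, 15.8% of DDX58 and 16.7% of NMI UMIs. At 0 mM these shares were 23.0%, 9%, 19.3% and 5.77%. Among the genes at the low end were CTGF (0.28) and TGFB2 (0.28), a matrix protein and a growth factor, PTX3 (0.33), NEDD4L (0.34), a ubiquitin ligase, and G0S2 (0.41). In G2/M barcodes at 2 mM CTGF, TGFB2, PTX3 and NEDD4L rested on 12 to 18 UMIs each.

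**Figure D5:**
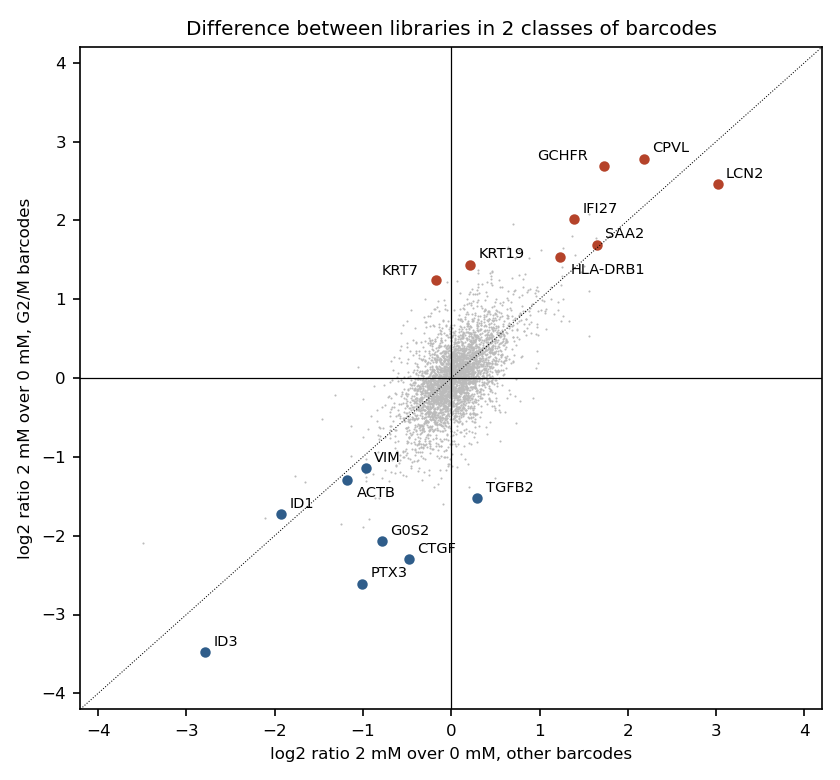
Log2 ratio of 2 mM over 0 mM in other barcodes (x axis) and in G2/M barcodes (y axis) for 3706 genes (grey), with named genes higher at 2 mM in red and lower in blue; the dotted line marks equal ratios. CPVL and ID3 lie far out in both classes, at ratios of 6.89 and 0.09 in G2/M barcodes, while KRT7 and TGFB2 lie far from the dotted line.

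By list, acute-phase, chemokine and HLA class II genes stood higher at 2 mM in G2/M barcodes. Of acute-phase and chemokine genes, 6 of 10 were at least 1.5-fold higher (60.0%, beside 10.1% of all genes), with a median log2 of 1.04, and 6 of 13 were in other barcodes (46.2%, beside 5.41%), with a median of 0.53. SAA1 had 2372 CPM at 2 mM, against 1042 CPM at 0 mM, and C3, a complement protein, had 361 and 136 CPM. Of HLA class II genes, 5 of 6 passed (83.3%), with a median of 0.82, and 7 of 8 in other barcodes (87.5%), with 0.93. CD74, the invariant chain, had 1984 and 1415 CPM (1.40) and was the only compared class II gene in G2/M barcodes that did not pass 1.5-fold. Of 10 HLA class I and loading genes 0 passed in either direction, with a median of 0.27.

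Of the interferon list, 10 of 29 genes were at least 1.5-fold higher at 2 mM in G2/M barcodes (34.5%, beside 10.1%) and 0 lower, with a median log2 of 0.38, while in other barcodes 2 of 34 were higher (5.88%, beside 5.41%) and 4 lower (11.8%, beside 2.9%), with a median of -0.24. ISG20, an exonuclease, had 175 CPM at 2 mM, against 94.5 CPM at 0 mM in G2/M barcodes, and 329 and 299 CPM in other barcodes. ISG15 had 914 and 939.6 CPM in G2/M barcodes, and 1706 and 2588 CPM in other barcodes. The G2/M median changed with the choice and weight of barcodes. Without the 5% deepest barcodes, which included 7 G2/M barcodes at 2 mM and 26 at 0 mM, it was 0.01 (-0.34 to 0.51). Weighting barcodes equally, it was 0.08 (-0.24 to 0.41). Both intervals held 0 and also 0.38, and the cause of the change was not tested. By step of the score, the list had 9447, 3983 and 8468 CPM at 2 mM and 9025, 3779 and 4761 CPM at 0 mM, so the libraries were furthest apart in the top step.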

How the data were processed

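Single-cell RNA libraries of 2 cultures, 1 per dose, were analysed. The authors deposited whole UMI counts for 19826 genes in 2000 barcodes, 1000 per library, told apart by column names. Per the submitters' processing notes, the processing involved bcl2fastq, STAR 2.5.0a and hg19. How barcodes were chosen, UMIs collapsed and genes annotated, and whether strand was used, is not given in the sources used here, so counts of overlapping genes and close copies are uncertain. Listed genes missing under any known symbol (26 entries) were not analysed here.

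Counts of G2/M barcodes (the rule is given above) and of other barcodes with at least 1000 UMIs were summed per library and divided by the class total, giving CPM, with 440996 and 2677945 UMIs at 2 mM and 984457 and 3367515 at 0 mM. Genes with at least 50 CPM in either class and 50 UMIs over both were compared by the ratio of CPM, with exact conditional Clopper-Pearson intervals; shares have exact binomial intervals, and ratios of ratios a normal interval on the log scale. All are at 95% and cover counting error only, and UMIs of 1 cell are not independent. The interval of the difference in shares, from the outer bounds of both, is wider than a 95% interval. Cells are not replicates, so no p-value was computed; genes were called at 1.5-fold. Computations were tested on simulated data.

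Members, the 41 gene lists and tests were chosen with earlier results of these data known. Named genes are the 12 of the rule, the 12 highest and 12 lowest for each main comparison by the interval bound nearest 1, 6 each for the ratio of ratios, up to 4 each per list, and cell type markers; mitochondrially encoded and ribosomal protein genes were left out of the rankings. Genes shown by step of the score include some outside that rule. No doublet caller was run, since the cells are of 1 line; the 5% deepest barcodes were left out as an alternative. Python 3.11.15, numpy 2.4.6, pandas 2.3.3, scipy 1.17.1 and, for TMM factors as an alternative, edgeR 4.0.16 were used. Alternatives were other limits of the rule, UMI minimums and CPM minimums, merged barcodes, thinning, a mitochondrial limit, equal weights and a stricter set of other barcodes.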

Additional observations from a re-analysis of the deposited data

Results flagged for a closer look

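In 4 genes G2/M and other barcodes differed by at least 1.5-fold in opposite directions in the 2 libraries. The difference between libraries was not tested, as each is 1 sample, and the rule for named genes does not include PHF5A and RRP1B, which were chosen after their values were seen. The ratio of G2/M over other barcodes was 0.518 at 2 mM and 1.826 at 0 mM for CTGF, a matrix protein, and 0.467 at 2 mM and 1.646 at 0 mM for TGFB2, a growth factor. It was 0.544 and 1.539 for PHF5A, a splicing factor, and 0.645 and 1.648 for RRP1B, a nucleolar protein. At 2 mM the G2/M values rested on 18, 12, 12 and 17 UMIs for CTGF, TGFB2, PHF5A and RRP1B. The interval for RRP1B at 2 mM, 0.367 to 1.07, held 1. At 0 mM 28.8% of the CTGF UMIs in G2/M barcodes came from 1 barcode.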

How the results depend on the processing

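Over 14 alternatives, 114 of 122 recomputed main values lay within the interval of the value as reported or, for counts of genes, within 1.5 times it. These intervals are wide. The median log2 ratio of G2/M genes outside the rule, in G2/M over other barcodes, was 2.60 at 0 mM with the limit at 0.8% and 3.001 at 2 mM with barcodes weighted equally. It was 3.13 at 2 mM and 3.43 at 0 mM against other barcodes under 0.2% of rule UMIs. Genes lower in both libraries numbered 499 with no CPM minimum and 93 at 100 CPM, where 171 were higher and 151 lower at 2 mM within G2/M barcodes. With the limit at 0.6%, the log2 ratio of CTGF at 0 mM reversed to -0.063, and with it at 0.8% the S-phase median at 0 mM reversed to -0.27; the cause was not tested. The difference in the share of G2/M barcodes ranged from -4.82 to -1.19 points over these alternatives, and was -0.78 and -0.33 points after thinning to 2000 and 3000 UMIs. With barcodes 1 base apart merged its interval, -9.44 to -0.13, left out 0. With 1 library per dose, this does not decide whether the cultures differed. The median log2 ratio of G2/M genes between the libraries, -0.14, was -0.02 without the 5% deepest barcodes. The alternatives moved 34 of 1747 list medians and 281 of 3250 values of named genes. ITGA10 at 2 mM gave no ratio with the limit at 0.6% or 0.8%, having no UMI left. No paired analysis was possible because the labels give no replicate numbers and 1 library per dose. Depth limits low genes in G2/M barcodes, which hold 440996 UMIs at 2 mM and 984457 UMIs at 0 mM.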
